A study of Mus musculus with 5 samples.

Results

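The piRNA pathway was followed in mouse testis through 10 genes, chosen by symbol: the PIWI genes Piwil1, Piwil2 and Piwil4, the Tudor genes Tdrd1, Tdrd5 and Tdrd6, the helicase genes Ddx4 and Mov10l1, and the granule and mitochondrial partners Asz1 and Mael. Each symbol matched 1 of the 27998 genes in the table, and all 10 are protein-coding. Whole testes of synchronized mice had been dissociated and sequenced as single cells at 0 h (labelled Control), 144 h (EP1), 350.4 h (EP2), 556.8 h (EP3) and 763.2 h (EP4), with 1 library per time. The design text gives the purpose of the series as following the testis at repeated arrivals of the same stages of the seminiferous cycle. The sources used here give no strain, age, genotype, synchronizing agent or number of animals. With 1 library per time there was no replicate check and no test between times, and a difference between times was a difference between libraries.

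PIWI-interacting RNAs, or piRNAs, are small RNAs of the germ line that guide PIWI proteins to transposon transcripts and other targets. Long precursors are unwound by Mov10l1 and cut at the outer membrane of mitochondria, where Asz1 sits. The products are loaded into PIWI proteins inside germ granules, which are built with Tudor proteins, Ddx4 and Mael. In mouse testis, piRNAs of fetal and newborn germ cells are directed largely at transposons, whereas the abundant pachytene piRNAs of meiosis come from their own set of long precursor genes.

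Sequence before the start sites of 5 of the genes is shown because their transcripts were all at least 2-fold higher in leptotene or zygotene-like than in preleptotene-like cells, and because each stretch held an E-box (CACGTG) or an NRF1-type motif (GCGC, 1 base of any kind and TGCGC). Tdrd5 and Ddx4 are not shown because their windows overlap annotated transcript over most of their length. The stretches come from RefSeq (GRCm38.p6), run 5′ to 3′ on the strand of the gene, start 250 bases before the RefSeq start site and stop where the GENCODE M21 annotation places the first untranslated or coding base. Capitals mark the 2 motifs on either strand. CACGTG reads alike on both strands, and the 2 motifs did not overlap. The start used for Piwil1 lies inside the longer gene that GENCODE annotates.
Piwil1, chr5:128735996-128736173, + strand: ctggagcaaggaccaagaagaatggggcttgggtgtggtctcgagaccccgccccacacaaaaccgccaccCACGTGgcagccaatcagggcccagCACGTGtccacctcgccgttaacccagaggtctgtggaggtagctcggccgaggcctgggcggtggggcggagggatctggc
Tdrd1, chr19:56825959-56826208, + strand: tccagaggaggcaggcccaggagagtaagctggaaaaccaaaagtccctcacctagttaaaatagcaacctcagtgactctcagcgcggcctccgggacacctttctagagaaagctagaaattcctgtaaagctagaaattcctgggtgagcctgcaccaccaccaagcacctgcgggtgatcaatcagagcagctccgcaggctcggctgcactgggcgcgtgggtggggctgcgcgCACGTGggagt
Mov10l1, chr15:88982744-88982908, + strand: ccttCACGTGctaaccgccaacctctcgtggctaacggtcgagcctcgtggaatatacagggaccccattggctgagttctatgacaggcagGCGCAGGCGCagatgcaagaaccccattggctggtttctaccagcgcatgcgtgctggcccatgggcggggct
Asz1, chr6:18109062-18109311, - strand: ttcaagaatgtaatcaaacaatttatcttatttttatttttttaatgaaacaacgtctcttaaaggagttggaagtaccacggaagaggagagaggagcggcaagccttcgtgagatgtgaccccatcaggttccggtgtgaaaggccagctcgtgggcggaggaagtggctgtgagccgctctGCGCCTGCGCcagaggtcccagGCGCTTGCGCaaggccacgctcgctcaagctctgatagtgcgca
Mael, chr1:166238748-166238994, - strand: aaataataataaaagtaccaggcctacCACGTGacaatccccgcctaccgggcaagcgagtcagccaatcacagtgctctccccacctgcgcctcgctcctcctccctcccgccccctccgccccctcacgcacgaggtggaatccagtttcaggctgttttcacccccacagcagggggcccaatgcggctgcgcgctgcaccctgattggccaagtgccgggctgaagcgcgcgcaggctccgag

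The promoter table held windows for 8 of the 10 members, with no entry for Piwil2 and Tdrd6. CACGTG was present in 5 of the 8 genes (Piwil1, Tdrd1, Ddx4, Mov10l1 and Mael) and in 6 of their 11 windows of 300 bases, of which the first 2 of Tdrd1 overlap. It was found in 7.15% of all 32851 RefSeq windows of that length. Piwil1 held 2 copies, starting 179 and 154 bases before its start site. The NRF1-type motif was present in 5 of the 8 genes (Piwil4, Tdrd1, Tdrd5, Mov10l1 and Asz1) and in 4.6% of all windows. Of the 2 MYB-family motifs searched, CAACNG was found in 3 genes against 35.0% of all windows, and AACCGTT in none of them against 0.913%. TATAAA was found in 2 genes, Piwil4 and Tdrd1, against 13.6%. Gene counts cover up to 3 windows per gene, whereas the shares are per window. CACGTG and the NRF1-type motif both contain CpG (C followed by G). The first windows of the 8 genes held 11 to 48 CpG, beside a median of 7 over all windows. Shares among windows of like CpG content were not computed, so an excess particular to the pathway was not tested. These are matches of letters, and binding of any factor was not measured.

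Cells were grouped into classes from markers fixed for each germ cell stage and somatic type, with clusters built without any pathway gene, and class names therefore stand for marker-based likeness. Levels are counts per 1000000 UMIs (CPM) of a class's pooled UMIs in one library, with an exact 95% Poisson interval that covers counting error only. A class needed at least 20 cells in a library, which left 25 germ class sums of between 502807 and 66812258 UMIs. Undifferentiated spermatogonia-like cells numbered 1745, 353, 86 and 34 at 0, 144, 350.4 and 763.2 h. Preleptotene-like cells reached the minimum at 144 h (1520 cells) and 350.4 h (75 cells), early pachytene-like cells from 350.4 h on (1137, 69 and 544) and late pachytene or diplotene-like cells also from 350.4 h on (40, 4571 and 829). Named somatic cells numbered 5513, 2413, 690, 133 and 104 from 0 to 763.2 h. Free RNA gives UMIs in cells that do not express a gene, so somatic levels are given as the background of the same library. That background is rough, because it pools clusters of unlike depth and level. At 0 h Ddx4 was 1.28 CPM in a Sertoli-like cluster of median depth 17813 UMIs and 117 CPM in one of 3152. At 350.4 h Piwil1 was 37.3 CPM in a Sertoli-like cluster of median depth 31522 UMIs and 168 CPM in one of 1349. Germ classes were not matched to somatic cells in depth. A step between classes was called at a CPM ratio of at least 2-fold whose 95% interval excluded 1, over at least 20 UMIs in both sums together.

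The 10 genes fell into 4 broad stage patterns, with Piwil2 between them. Their positions are given on GRCm38 from GENCODE M21. Piwil4 exceeded 4 CPM in undifferentiated spermatogonia-like cells and in no other staged germ class. Mov10l1 and Asz1 were highest at or before the leptotene or zygotene-like class, and Piwil1, Tdrd1, Tdrd5 and Ddx4 had their highest value in early pachytene-like cells in each of the 3 libraries that held that class, with Ddx4 at 350.4 h within counting error of the class before. Piwil2 was highest in leptotene or zygotene-like cells or in early pachytene-like cells, depending on the library. Tdrd6 and, in 1 of 3 libraries, Mael were highest in late pachytene or diplotene-like cells. The heat map of levels relative to the highest sum of each gene shows these patterns.

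**Figure D1:**
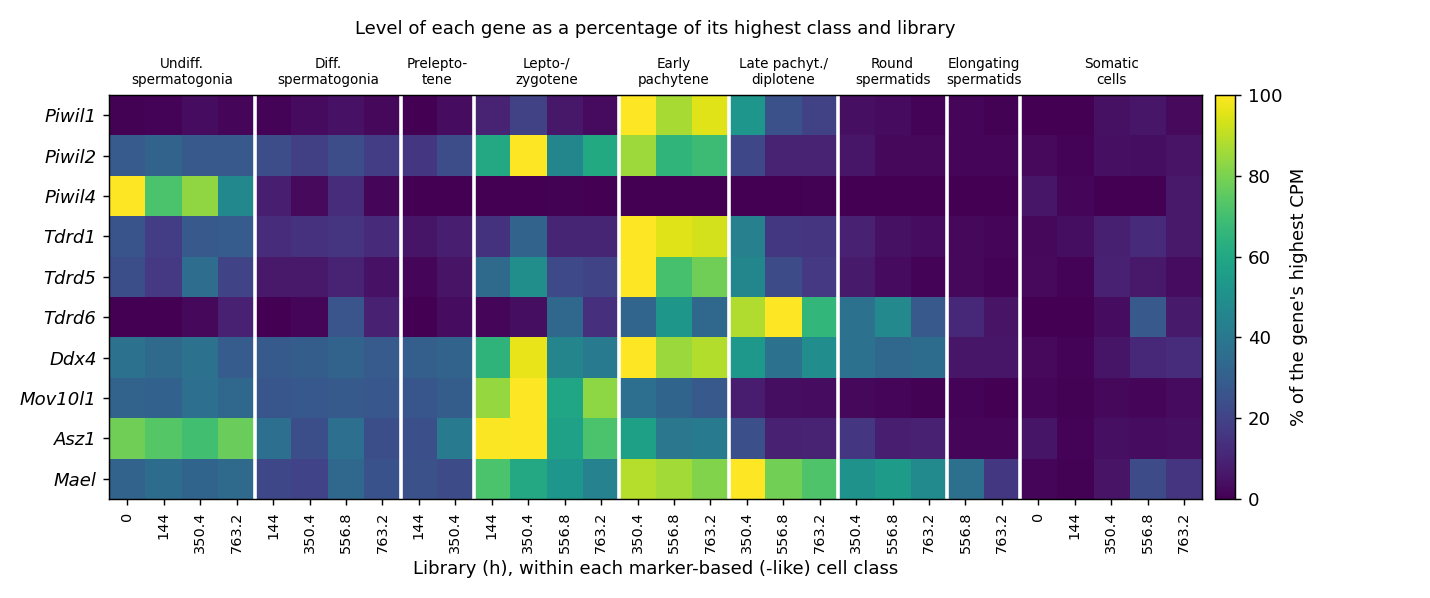
Level of each gene (rows) in each marker-based cell class and library (columns, time in h), as a percentage of the highest CPM of that gene in any column. Bright cells move from the undifferentiated class for Piwil4 through the leptotene or zygotene and early pachytene classes for most genes to the late pachytene or diplotene class for Tdrd6.

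Piwil1 encodes MIWI, the PIWI protein that carries pachytene piRNAs and is required in spermatids. Piwil1 (ENSMUSG00000029423, chr5:128702524-128755474, + strand) stood in early pachytene-like cells at 1259 CPM (95% Poisson interval 1247 to 1271) at 350.4 h, 1095 (1053 to 1139) at 556.8 h and 1197 (1178 to 1216) at 763.2 h. In late pachytene or diplotene-like cells of the same libraries it was 660, 311 and 250 CPM, and in round spermatid-like cells 52.9, 38.2 and 13.0 CPM. The 3 libraries thus gave the same order of classes, with no overlap between neighbouring classes within a library. In leptotene or zygotene-like cells Piwil1 was 128, 246, 83.5 and 39.3 CPM from 144 to 763.2 h. Named somatic cells, which should lack it, held 0.75, 0.190, 54.3, 74.1 and 31.9 CPM from 0 to 763.2 h. The Poisson intervals of the leptotene or zygotene-like and somatic sums overlapped at 556.8 h (76.6 to 90.9 against 62.9 to 86.8 CPM) and at 763.2 h (32.5 to 47.0 against 21.7 to 45.3 CPM). At those times the Piwil1 of that class could not be told apart from the somatic background.

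The least background was at 0 and 144 h, where no class from early pachytene on reached 20 cells. In these libraries Piwil1 was 8.42 CPM (7.15 to 9.86) in undifferentiated spermatogonia-like cells at 0 h and 13.9 CPM at 144 h. It was 11.3 CPM in differentiating spermatogonia-like cells at 144 h and 2.04 CPM (1.48 to 2.74) in preleptotene-like cells. The spermatogonial values were above the somatic ones of the same libraries, and the preleptotene-like value was 0.181 times the differentiating one (0.128 to 0.252). Leptotene or zygotene-like cells at 144 h, 24 in number, then held 62.7-fold more than preleptotene-like cells (42.5 to 93.3).

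The share of cells with a Piwil1 UMI, after thinning every cell to 1000 UMIs, was 55.3%, 50.7% and 42.6% of early pachytene-like cells at 350.4, 556.8 and 763.2 h. Without thinning the shares were 84.4%, 94.2% and 76.1%, at median depths of 5350, 27538 and 6328 UMIs. In named somatic cells the thinned shares were 13.5%, 5.26% and 0.962%, and the unthinned shares 27.2%, 47.4% and 15.4%, at median depths of 1678, 10041 and 6175 UMIs.

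Piwil2 encodes MILI, which binds piRNAs from fetal gonocytes to spermatids. Piwil2 (ENSMUSG00000033644, chr14:70372477-70429383, - strand) was in undifferentiated spermatogonia-like cells at 95.9, 106, 93.0 and 93.5 CPM at 0, 144, 350.4 and 763.2 h, so these 4 libraries differed by little. In leptotene or zygotene-like cells it was 201, 333, 152 and 203 CPM at 144, 350.4, 556.8 and 763.2 h. In early pachytene-like cells it was 284, 218 and 228 CPM at 350.4, 556.8 and 763.2 h, and in late pachytene or diplotene-like cells 71.7, 31.7 and 31.3 CPM. The step out of early pachytene was 0.252, 0.146 and 0.137 times in the 3 libraries. Between leptotene or zygotene-like and early pachytene-like cells the order was not fixed, with ratios of 0.852, 1.43 and 1.13.

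Piwil4 encodes MIWI2, the PIWI protein that enters the nucleus of fetal gonocytes and directs methylation of transposons. Piwil4 (ENSMUSG00000036912, chr9:14696230-14740733, - strand) was 29.9 CPM (27.5 to 32.5), 21.5 (18.8 to 24.4), 25.0 (18.8 to 32.6) and 13.9 (5.60 to 28.7) in undifferentiated spermatogonia-like cells at 0, 144, 350.4 and 763.2 h. In differentiating spermatogonia-like cells it was 2.54, 0.729, 3.81 and 0.435 CPM from 144 to 763.2 h. The step was 0.118 times at 144 h (0.0847 to 0.162) and 0.0292 times at 350.4 h (0.0161 to 0.0505), while at 763.2 h both sums held too few UMIs for a call. No later staged class exceeded 0.2 CPM in any library. Early pachytene-like cells at 350.4 h held 0 UMIs, with a 95% Poisson upper bound of 0.105 CPM. Named somatic cells held 1.76 CPM at 0 h and at most 2.06 CPM later.

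**Figure D2:**
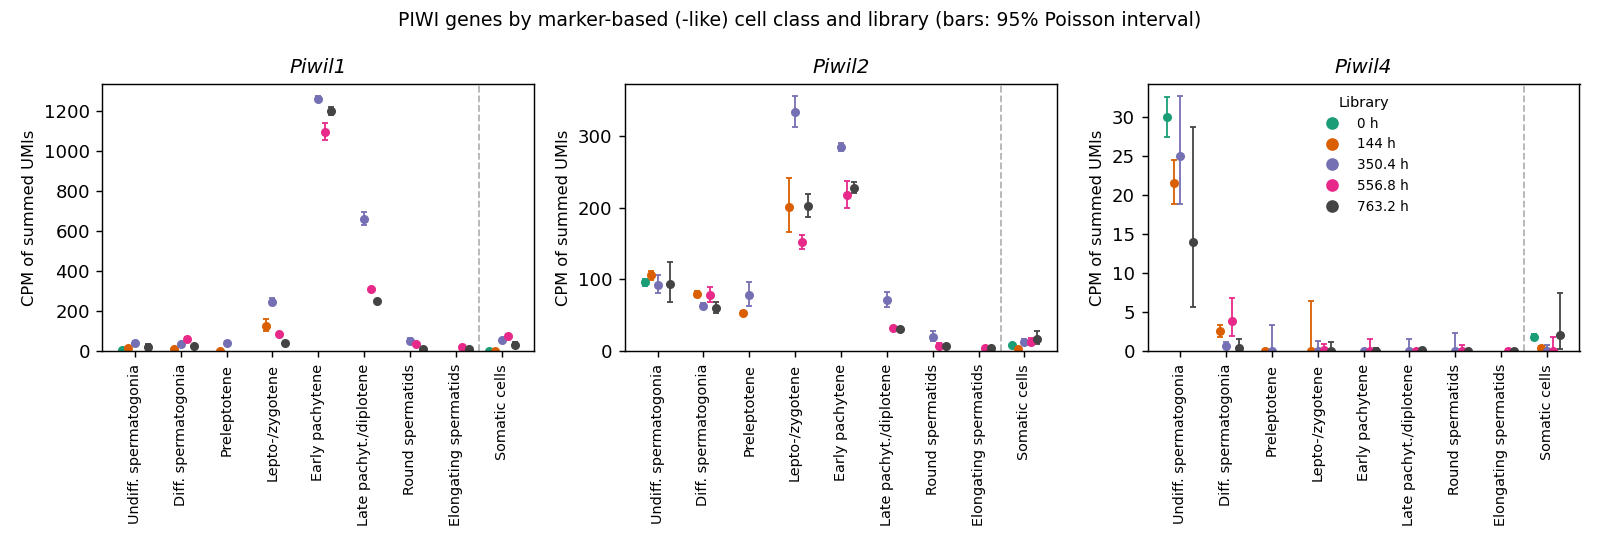
CPM of summed UMIs (vertical axis, from 0) of the 3 PIWI genes by marker-based cell class (horizontal axis) and library (colour), with 95% Poisson intervals as bars and named somatic cells to the right of the dashed line. Piwil1 sits between 1095 and 1259 CPM in the early pachytene class, Piwil2 covers the leptotene or zygotene and early pachytene classes, and Piwil4 is between 13.9 and 29.9 CPM in the undifferentiated class.

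Tudor proteins bind methylated arginines in the tails of PIWI proteins. Tdrd1 (ENSMUSG00000025081, chr19:56826209-56870012, + strand), a scaffold of the intermitochondrial cement, was 113, 78.7, 122 and 127 CPM in undifferentiated spermatogonia-like cells at 0, 144, 350.4 and 763.2 h. It was 25.5 and 36.9 CPM in preleptotene-like cells at 144 and 350.4 h. In early pachytene-like cells it was 436, 415 and 407 CPM at 350.4, 556.8 and 763.2 h, a narrow range. The dip at preleptotene and the maximum in early pachytene both lay outside the Poisson intervals of the neighbouring classes within each library that held them. From leptotene or zygotene-like to early pachytene-like cells the ratio was 3.15, 9.16 and 9.19. At 556.8 and 763.2 h the leptotene or zygotene-like class held 45.3 and 44.3 CPM, beside 53.4 and 29.9 in named somatic cells. The intervals overlapped at both times, so the size of the later ratios is limited by the background.

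Tdrd5 (ENSMUSG00000060985, chr1:156255296-156303664, - strand) is needed for the processing of pachytene piRNA precursors. It also dipped in preleptotene-like cells at 144 h and was highest in early pachytene-like cells. It was 62.8, 43.4, 93.5 and 53.7 CPM in undifferentiated spermatogonia-like cells, and 17.5, 17.6, 26.0 and 12.6 CPM in differentiating ones. Its lowest spermatogonial or meiotic sum was 3.20 CPM (2.49 to 4.05), in preleptotene-like cells at 144 h, and the leptotene or zygotene-like sum of that library was 28.5-fold higher (19.5 to 41.4). Early pachytene-like cells held 262, 186 and 206 CPM, and round spermatid-like cells 18.7, 7.94 and 2.74 CPM. Somatic background was 23.8, 18.3 and 8.24 CPM in these 3 libraries, so round spermatid-like cells held no more Tdrd5 than somatic cells did.

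Tdrd6 (ENSMUSG00000040140, chr17:43615335-43630299, - strand), a component of the chromatoid body of spermatids, had its maximum in a later class than the other members in all 3 libraries, apart from Mael at 350.4 h. It was 0.492 and 0.370 CPM in undifferentiated spermatogonia-like cells at 0 and 144 h and 0.139 CPM in preleptotene-like cells at 144 h. In early pachytene-like cells it was 91.6, 149 and 94.0 CPM, in late pachytene or diplotene-like cells 248, 282 and 187 CPM, and in round spermatid-like cells 106, 133 and 79.2 CPM at 350.4, 556.8 and 763.2 h. The ratio of the late to the early class was 2.71, 1.89 and 1.99, of which the first passed the 2-fold limit. At 556.8 h differentiating spermatogonia-like cells held 74.4 CPM (64.8 to 85.1) and named somatic cells 78.4 CPM (66.9 to 91.4), so the spermatogonial Tdrd6 of that library was at the background.

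**Figure D3:**
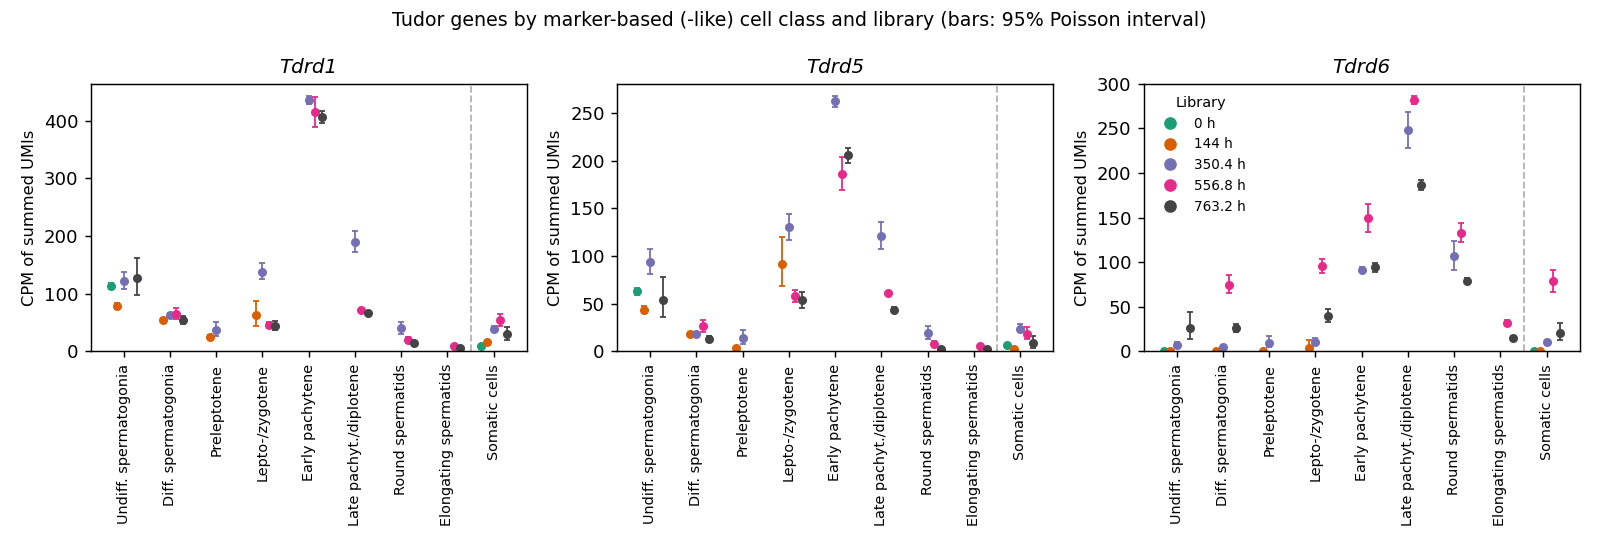
CPM of summed UMIs (vertical axis, from 0) of the 3 Tudor genes by marker-based cell class (horizontal axis) and library (colour), with 95% Poisson intervals as bars and named somatic cells to the right of the dashed line. Tdrd1 (407 to 436 CPM) and Tdrd5 (186 to 262 CPM) are highest in the early pachytene class and Tdrd6 (187 to 282 CPM) in the late pachytene or diplotene class.

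Ddx4 (ENSMUSG00000021758, chr13:112598333-112652475, - strand), the germ cell RNA helicase also known as mouse vasa homolog, was present from the first class on. It was 318, 296, 318 and 249 CPM in undifferentiated spermatogonia-like cells, 241 to 272 CPM in differentiating ones and 261 and 271 CPM in preleptotene-like cells. In early pachytene-like cells it was 856, 728 and 756 CPM, and in leptotene or zygotene-like cells 558, 828, 391 and 351 CPM. At 350.4 h the intervals of these classes overlapped (846 to 866 against 794 to 862 CPM). Round spermatid-like cells held 318, 289 and 304 CPM, close to the spermatogonial range. Elongating spermatid-like cells then held 50.3 and 50.8 CPM at 556.8 and 763.2 h, 0.174 and 0.167 times the round class, and below the somatic sums of 97.2 and 110 CPM.

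Mov10l1 (ENSMUSG00000015365, chr15:88982909-89055152, + strand), the helicase that binds piRNA precursors, was highest in leptotene or zygotene-like cells of every library that held them. The values were 851, 1012, 595 and 838 CPM at 144, 350.4, 556.8 and 763.2 h. Spermatogonial and preleptotene-like sums lay between 271 and 369 CPM in all libraries. Early pachytene-like cells held 369, 325 and 284 CPM, and late pachytene or diplotene-like cells 77.9, 35.6 and 34.4 CPM. The thinned share of cells with a Mov10l1 UMI followed, from 61.6% of leptotene or zygotene-like cells at 350.4 h (99.0% unthinned, median depth 22287) to 10.0% of late pachytene or diplotene-like cells (50.0% unthinned, median depth 28106). In named somatic cells of that library it was 4.93% (12.8% unthinned, median depth 1678).

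Asz1 (ENSMUSG00000010796, chr6:18050964-18109061, - strand), also called Gasz, a mitochondrial scaffold of the pathway, had maxima on both sides of a dip. It was 117, 110, 104 and 115 CPM in undifferentiated spermatogonia-like cells and 54.6, 35.9, 54.7 and 35.7 CPM in differentiating ones. In preleptotene-like cells it was 36.7 CPM (34.1 to 39.3) at 144 h and 62.1 CPM (48.3 to 78.6) at 350.4 h. The dip was thus lowest in preleptotene-like cells at 144 h and in differentiating spermatogonia-like cells at 350.4 h. In leptotene or zygotene-like cells it was 149, 150, 85.7 and 108 CPM. The Poisson intervals of the undifferentiated and leptotene or zygotene-like sums overlapped at 763.2 h (87.6 to 149 against 96.1 to 120 CPM) but not at 144 or 350.4 h.

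Mael (ENSMUSG00000040629, chr1:166201201-166238747, - strand), which is needed for transposon silencing and for pachytene piRNAs, was 808, 782 and 736 CPM in early pachytene-like cells and 909, 716 and 659 CPM in late pachytene or diplotene-like cells. The order of those 2 classes was reversed between 350.4 h and the later times. Round spermatid-like cells held 466, 503 and 436 CPM. In elongating spermatid-like cells Mael was still 336 CPM (327 to 346) at 556.8 h and 146 CPM (140 to 152) at 763.2 h, with somatic sums of 211 and 137 CPM.

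**Figure D4:**
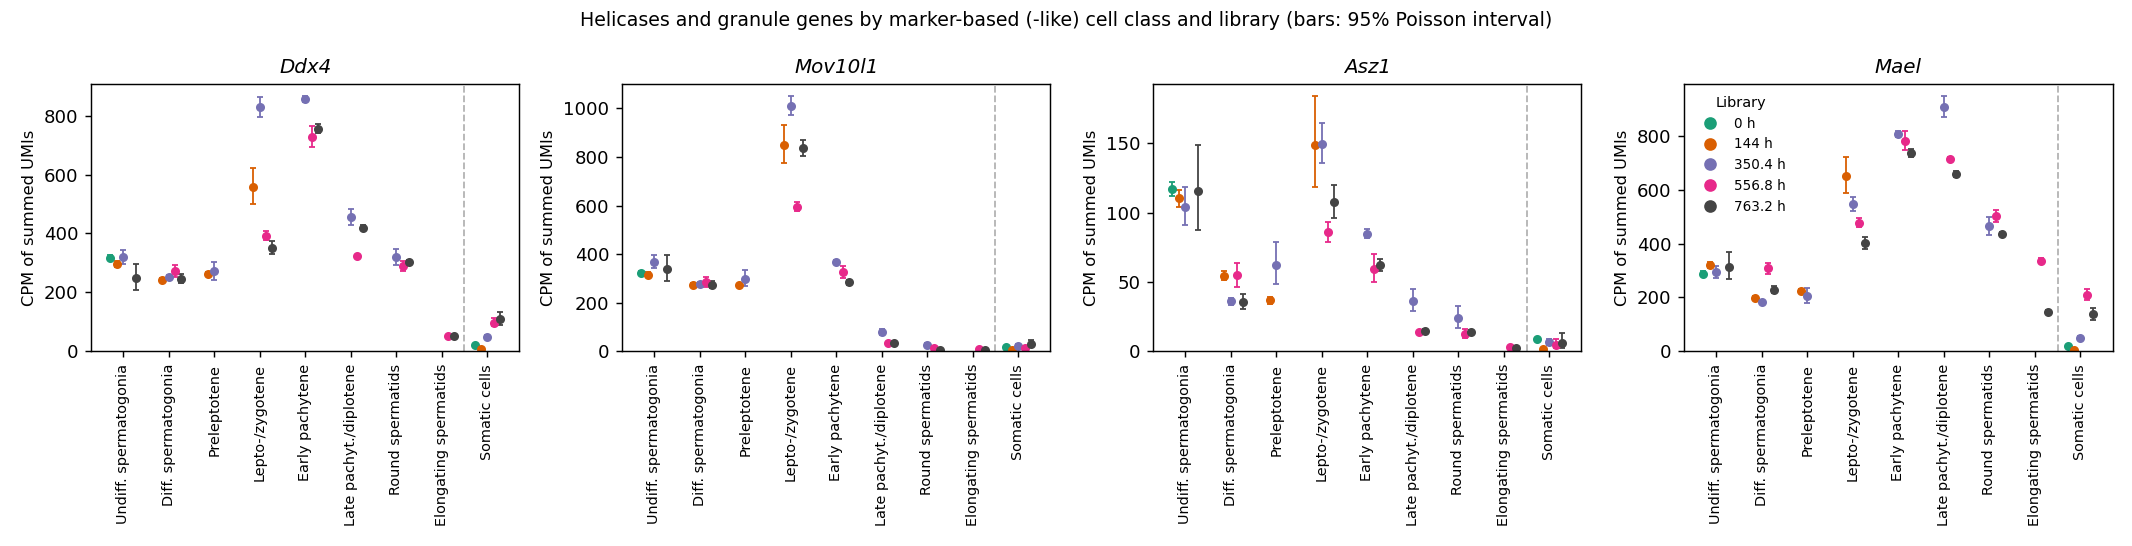
CPM of summed UMIs (vertical axis, from 0) of Ddx4, Mov10l1, Asz1 and Mael by marker-based cell class (horizontal axis) and library (colour), with 95% Poisson intervals as bars and named somatic cells to the right of the dashed line. Mov10l1 is highest in the leptotene or zygotene class (595 to 1012 CPM) and Mael stays at 436 CPM or more from early pachytene to the round spermatid class.

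Counts of called steps over the whole pathway were read against the share of all measured genes that met the same rule in every library, over genes that held at least 20 UMIs at the step in each of them. Of the 10 members, 8 did so at each of the first 3 steps and 9 at each later one. From undifferentiated to differentiating spermatogonia-like cells, in 3 libraries, 2 members were lower in each (Tdrd5 and Asz1; 4.55% of all genes) and 0 were higher (3.63%). From differentiating spermatogonia-like to preleptotene-like cells, in 2 libraries, 0 members were higher (6.74%) and 0 lower (7.37%) in both. At 144 h alone, 4 of 9 members tested were lower at that step (Piwil1, Piwil4, Tdrd1 and Tdrd5; 23.9%) and 0 higher (13.9%). From preleptotene-like to leptotene or zygotene-like cells, 8 of the 10 members were higher in both libraries, against 13.6% of all genes, and 0 were lower (19.9%). At these times the later class was 1 cluster, with 24 cells at 144 h and 98 at 350.4 h, whose second-best marker score was that of early pachytene (1.24, beside 1.83 for leptotene or zygotene). In coarser clusters the leptotene or zygotene-like class held 0 cells at 144 h and 1 at 350.4 h, so the step could not be measured there and rests on how the class is drawn. The exceptions were Piwil4, which had no UMIs in the later class, and Tdrd6, which had too few UMIs for a call at 144 h and a ratio of 1.12 at 350.4 h (0.526 to 2.58). This was the step with the most members in one direction. The median log2 ratio was 1.78 over the 8 members tested at 144 h and 1.76 over the 9 tested at 350.4 h, beside -0.13 and -0.09 over all genes.

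At 556.8 and 763.2 h no preleptotene-like class was measured, and leptotene or zygotene-like cells were set against differentiating spermatogonia-like cells. A cluster of 512 cells at 556.8 h and 139 at 763.2 h took no stage name. Its marker scores were 1.92 for leptotene or zygotene and 1.74 for preleptotene, and the step leaves it out. Tdrd5 (2.22-fold and 4.22-fold) and Mov10l1 (2.08-fold and 3.06-fold) were higher in both libraries, against 8.9% of all genes, and 0 were lower (18.1%). Into early pachytene, 3 members were higher in all 3 libraries (Piwil1, Tdrd1 and Tdrd5; 6.62%) and 0 were lower (12.6%). Out of early pachytene, 5 members were lower in all 3 libraries (Piwil2, Tdrd1, Tdrd5, Mov10l1 and Asz1; 15.3%) and 0 were higher (9.16%). Into round spermatid-like cells 6 members were lower (Piwil1, Piwil2, Tdrd1, Tdrd5, Tdrd6 and Mov10l1), against 21.9% of all genes, and 0 were higher (24.3%). With every cell given the same weight, in place of every UMI, 1 member was lower in all 3 libraries at that step, and with coarser clusters 2. Into elongating spermatid-like cells 4 members were lower in both libraries (Tdrd1, Tdrd6, Ddx4 and Asz1), where 43.9% of all genes were also lower, and 0 were higher (7.41%).

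Within part of the late pachytene or diplotene-like class, Piwil1, Tdrd6 and Mael moved apart from Ddx4. In 3 deep clusters ordered by their level of Ccna1, a cyclin of late meiotic prophase (101, 289 and 406 CPM at 556.8 h), Piwil1 was 632, 216 and 41.7 CPM. Tdrd6 was 363, 291 and 227 CPM and Mael 835, 732 and 630 CPM in the same clusters, whereas Ddx4 was 319, 325 and 461 CPM. At 763.2 h Piwil1 was 601, 164 and 44.6 CPM and Ddx4 355, 428 and 487 CPM, the same directions for both of these genes. The levels of Tdrd6 and Mael in the 3 clusters at 763.2 h are not given here. These clusters held 164, 188 and 101 of the 4571 cells of the class at 556.8 h. Its other clusters and the other members are not given here. The cluster highest in Ccna1 had round spermatids as its second-best marker score (0.47, beside 1.15 for its class). Early pachytene-like cells were split by depth, and Piwil1 at 350.4 h was 1311 CPM in a cluster of median depth 71546 UMIs and 671 CPM in one of 2608 UMIs, while Ddx4 was 858 and 829 CPM.

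Between times, 0 of 9 members tested were called higher (8.75% and 3.97% of all genes) or lower (1.43% and 0.792%) in early pachytene-like cells. These were the steps from 350.4 to 556.8 h and from 556.8 to 763.2 h. Counts of 0 among 9 members are near such shares. The ratios lay between 0.630 and 1.63, both for Tdrd6, leaving out Piwil4 with at most 1 UMI. The class held 1 deep cluster common to the 3 libraries (402, 44 and 217 cells), where Piwil1 was 1311, 1208 and 1378 CPM, and shallow clusters that differed between 350.4 h and the later times. In late pachytene or diplotene-like cells, 0 members were called from 556.8 to 763.2 h (9.13% higher and 3.4% lower of all genes). From 350.4 to 556.8 h, 5 were lower there (Piwil1, Piwil2, Tdrd1, Mov10l1 and Asz1; 11%) and 0 higher (4.86%), on 40 cells at the earlier time. With coarser clusters the ratios of Piwil1, Piwil2, Tdrd1 and Mov10l1 at this step were above 1, so their direction rests on how the class is drawn.

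In undifferentiated spermatogonia-like cells, 0 members were called from 0 to 144 h, against 4.46% higher and 6.49% lower of all genes. From 144 to 350.4 h Piwil1 (2.87-fold) and Tdrd5 (2.15-fold) were higher in that class (3.38%) and 0 lower (5.05%). Piwil1 went from 13.9 to 39.8 CPM in the class, beside 0.190 to 54.3 in somatic cells, and was not above the somatic level at 350.4 h. Tdrd5 went from 43.4 to 93.5 CPM, beside 2.30 to 23.8 in somatic cells. From 350.4 to 763.2 h Tdrd6 was 3.99-fold higher (8.23%) and Piwil1 0.500 times its earlier level (1.76%). Both were near the somatic level, which went the same way, from 9.77 to 20.6 CPM for Tdrd6 beside 6.48 to 25.9 in the class, and from 54.3 to 31.9 CPM for Piwil1 beside 39.8 to 19.9. In preleptotene-like cells Piwil1 was 19.4-fold (12.5 to 30.2) and Tdrd5 4.22-fold (2.24 to 7.45) higher at 350.4 than at 144 h (4.49%), and 0 were lower (3.24%). Over the same step the somatic level went from 0.190 to 54.3 CPM for Piwil1 and from 2.30 to 23.8 CPM for Tdrd5. With an assumed 10% of free RNA subtracted, the preleptotene-like difference in Tdrd5 changed direction.

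In differentiating spermatogonia-like cells Piwil1 and Tdrd6 were higher at 350.4 than at 144 h (10.9%) and Piwil4 lower (13.2%). Piwil4 and Tdrd6 were then higher at 556.8 than at 350.4 h (19.2%) and 0 lower (2.59%), and Piwil1, Tdrd5 and Tdrd6 lower at 763.2 than at 556.8 h (4.34%) with 0 higher (4.97%). Tdrd6 made the widest moves, by 33.2-fold, 14.1-fold and 0.348 times. In named somatic cells it was 0, 9.77, 78.4 and 20.6 CPM at the 4 times, with the same order as in the spermatogonia-like cells. Piwil1 in the class was 11.3, 34.5, 60.6 and 25.7 CPM, beside 0.190, 54.3, 74.1 and 31.9 in somatic cells. From 350.4 h on Piwil1 was thus at or below the somatic level. Tdrd5 was 26.0 and then 12.6 CPM at 556.8 and 763.2 h, beside 18.3 and 8.24 in somatic cells. The Piwil4 ratio of 556.8 over 350.4 h rests on 11 and 18 UMIs.

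In leptotene or zygotene-like cells 1 member, Tdrd1, was 2.19-fold higher at 350.4 than at 144 h (4.39%) and 0 were lower (2.04%). The class sum of Tdrd1 at 144 h held 36 UMIs from 24 cells. The somatic level of Tdrd1 went the same way, from 15.7 to 38.7 CPM, beside 63.0 to 138 in the class. From 350.4 to 556.8 h, 5 members were lower in that class (Piwil1, Piwil2, Tdrd1, Tdrd5 and Ddx4; 4.62% of all genes) and 1, Tdrd6, was higher (24.8%). The cells at 350.4 h came from 1 cluster (98 of 99 cells) and those at 556.8 h from another (679 of 680), so time and cluster cannot be told apart at that step. From 556.8 to 763.2 h, within the second cluster, Piwil1 and Tdrd6 were lower (2.71%) and 0 higher (4.44%). The somatic level was lower at the later time too, at 31.9 after 74.1 CPM for Piwil1 and 20.6 after 78.4 CPM for Tdrd6. At 556.8 h the class's 95.8 CPM of Tdrd6 (88.3 to 104) overlapped the somatic interval of 66.9 to 91.4, as Piwil1's 83.5 CPM (76.6 to 90.9) did that of 62.9 to 86.8.

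In round spermatid-like cells Piwil2 and Tdrd5 were lower at 556.8 than at 350.4 h (8.42%) and 0 higher (5.2%), with Piwil2 at 19.9 and then 7.72 CPM beside 13.2 and 13.0 in somatic cells and Tdrd5 at 18.7 and then 7.94 CPM beside 23.8 and 18.3. Piwil1, Tdrd5 and Mov10l1 were lower at 763.2 than at 556.8 h (8.44%) and 0 higher (1.11%). All 3 were at or below the somatic level at both times, Piwil1 at 38.2 and 13.0 CPM beside 74.1 and 31.9, and Tdrd5 at 7.94 and 2.74 CPM beside 18.3 and 8.24. Mov10l1 was at 13.9 and 6.18 CPM beside 14.9 and 30.9 in somatic cells. In elongating spermatid-like cells 5 members were lower at 763.2 than at 556.8 h (Piwil1, Tdrd5, Tdrd6, Mov10l1 and Mael), where 25.7% of all genes were lower too, and 0 were higher (1.42%). All of these but Mael were at or below the somatic level at both times. Piwil1 was at 21.7 and 9.67 CPM beside 74.1 and 31.9, and Tdrd5 at 5.56 and 2.12 beside 18.3 and 8.24. Tdrd6 was at 32.2 and 15.2 CPM beside 78.4 and 20.6, and Mov10l1 at 8.56 and 3.37 beside 14.9 and 30.9. Mael in the deep elongating cluster found in both libraries was 328 and 322 CPM. A second deep cluster, with 554 of its 568 cells at 763.2 h, held 94.1 CPM.

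In the whole suspension, summed over all deposited barcodes, Piwil4, Piwil1 and Tdrd6 were highest in the order of their highest germ classes. This did not hold for every member, as Mov10l1 and Asz1 were highest at the same time as Piwil1. In the suspension, fewer cells of a type and less RNA per cell cannot be told apart. Piwil1 was 2.65, 13.3, 527, 227 and 211 CPM from 0 to 763.2 h, Tdrd6 0.159, 0.348, 48.1, 202 and 93.8 CPM, and Piwil4 8.75, 3.06, 0.914, 0.169 and 0.163 CPM. Ddx4 was 96.5, 149, 470, 281 and 344 CPM and Mov10l1 94.0, 155, 281, 83.0 and 84.1 CPM. Piwil2, Tdrd1, Tdrd5 and Asz1 also had their highest suspension level at 350.4 h, and Mael (582 CPM) and Tdrd6 at 556.8 h.

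Relative to its suspension level, Tdrd1 was higher in Sertoli-like cells, the supporting cells of the tubule, than the other 9 members. This held at 144, 350.4 and 556.8 h, but not at 0 h. The percentages that follow are ratios of CPM and not shares of transcripts. At 144 h Sertoli-like cells held 644 of the 3949 Tdrd1 UMIs of the suspension. Tdrd1 in Sertoli-like cells was 7.39, 23.2, 55.1 and 70.8 CPM at 0, 144, 350.4 and 556.8 h. At 144 h this was 66.0% of the whole suspension's level, while the other members were at 14.6% or less. In Sertoli-like cells of at least 5000 UMIs, a limit added after the data were seen, Tdrd1 was at 12.6%, 66.1%, 21.9% and 115% of the suspension level at the 4 times, and the other members at 0 to 23.0%, 0 to 14.6%, 0 to 10.1% and 0 to 40.5%. In the 2 large Sertoli-like clusters of 144 h, of 777 and 479 cells, Tdrd1 was 17.8 CPM (15.7 to 20.0) and 31.4 CPM (28.2 to 34.8), and Ddx4 5.83 and 4.12 CPM. A smaller Sertoli-like cluster of 34 cells held 9.35 CPM of Tdrd1 and 18.7 CPM of Ddx4. In the 6 clusters of other named somatic types of that library Tdrd1 was between 0 and 2.03 CPM. A shallow unnamed cluster of 1086 cells, nearest to Sertoli cells in its markers, held 35.7 CPM of Tdrd1 and 30.2 CPM of Ddx4.

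**Figure D5:**
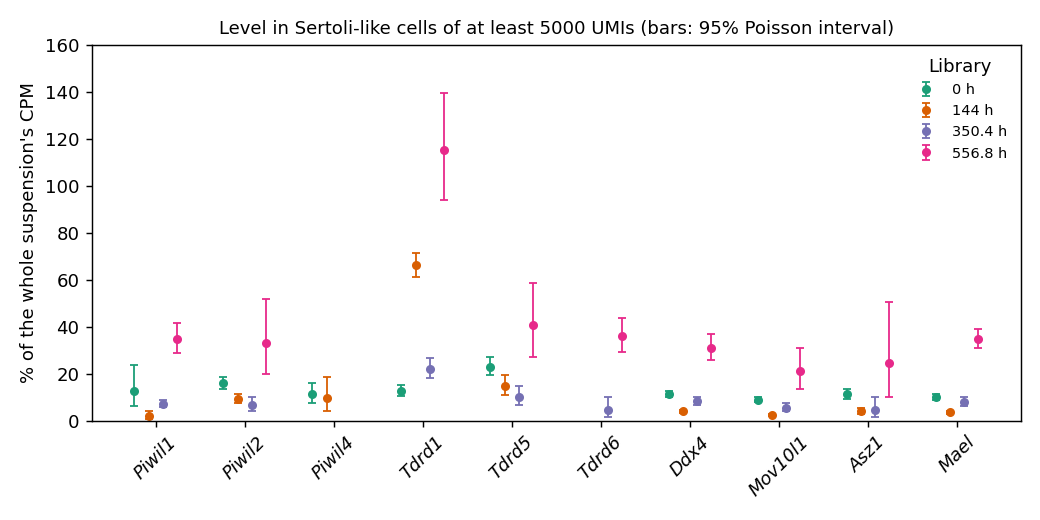
CPM in Sertoli-like cells of at least 5000 UMIs as a percentage of the whole suspension's CPM (vertical axis) for each gene and library (colour), with 95% Poisson intervals of the Sertoli-like sum as bars and without pairs whose suspension level was under 1 CPM. Tdrd1 is at 66.1% at 144 h and 115% at 556.8 h, above the other genes in both libraries.

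Of the other pathway genes, a list of 25 genes present in the table, 6 of 20 tested in both libraries were higher from preleptotene-like to leptotene or zygotene-like cells (13.6% of all genes) and 2 lower (19.9%), beside 8 and 0 of the 10 members. Tdrd9, a helicase with a Tudor domain, was 4.04-fold and 3.43-fold higher, Tdrd12 3.07-fold and 3.69-fold, and Mybl1, the transcription factor of pachytene piRNA genes, 4.3-fold and 3.45-fold at 144 and 350.4 h. Of 7 related genes outside the pathway, the Argonaute genes Ago1 to Ago4 and the helicase genes Mov10, Ddx3x and D1Pas1, 2 were higher (12.9% of all genes) and 3 lower (21.2%) at this step at 144 h, and 2 higher (19%) and 4 lower (24.3%) of 6 tested at 350.4 h. Mybl1 was also 31.2-fold and 6.33-fold higher in preleptotene-like than in differentiating spermatogonia-like cells, from 1.06 and 7.82 CPM. At this step Piwil1 was called lower at 144 h and was not called at 350.4 h. Its 34.5 and 39.6 CPM at 350.4 h were not above the somatic 54.3 CPM. An order between Mybl1 and Piwil1 was not tested. At that same step Gpat2, a mitochondrial partner of Piwil2, was 2.36-fold and 2.15-fold higher and Henmt1, which methylates piRNA ends, was 0.236 and 0.450 times the earlier level. Tex15, a nuclear partner of Piwil4, was highest in preleptotene-like cells (825 and 1563 CPM) and at 0.14 and 0.0822 times that level at the next step, where Snd1 was also lower (0.302 and 0.407 times). Morc1, which acts in transposon silencing, was in differentiating spermatogonia-like cells at 0.206, 0.127 and 0.123 times its undifferentiated level, and Exd1 at 0.435, 0.476 and 0.339 times.

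Into early pachytene, Pld6, the mitochondrial nuclease MitoPLD, was 2.61-fold, 4.76-fold and 5.63-fold higher, and Henmt1 7.49-fold, 2.35-fold and 4.90-fold. Tex15, Btbd18, a regulator of pachytene piRNA transcription, and Snd1 were lower in all 3 libraries. These were 2 higher (6.62% of all genes) and 3 lower (12.6%) of 22 tested. Out of early pachytene 10 of 23 tested were lower in all 3 libraries (15.3% of all genes) and 0 higher (9.16%), with Tex19.1, Fkbp6 and Stk31 at 0.196, 0.273 and 0.306 times their early pachytene level at 350.4 h. Into the round spermatid-like class 10 of 20 tested were lower (21.9% of all genes), among them Stk31, Prmt5 and Mybl1 at 0.173, 0.155 and 0.196 times at 350.4 h, and 2 higher (24.3%). Those 2 were Tex15 (12.6-fold, 14.7-fold and 6.66-fold) and Dnmt3l (16.1-fold, 10.3-fold and 7.61-fold). Into the elongating class 13 of 21 tested were lower in both libraries, where 43.9% of all genes were lower too, with Tex15, Tdrd7 and Dnmt3l at 0.0774, 0.122 and 0.105 times at 556.8 h. From differentiating spermatogonia-like to leptotene or zygotene-like cells at 556.8 and 763.2 h, Mybl1, Stk31 and Exd1 were higher in both (8.9% of all genes) and Pnldc1 and Tex19.1 lower (18.1%), of 23 tested.

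Likeness of pattern was measured as Pearson's r of log2(CPM + 20) over the 25 germ class sums, which share libraries and classes, and is given as a description. Among the members the most alike were Mov10l1 and Asz1 (r = 0.92), Tdrd1 and Tdrd5 (0.92) and Piwil2 and Mov10l1 (0.91), and Piwil1 was most like Mael (0.84). The least alike were Piwil4 and Tdrd6 (-0.45). Of 7059 genes compared, those nearest to Piwil1 were Spdye4b, Elfn2 and Bnip1 (each 0.97), and those nearest to Piwil4 were Foxf1, Acaa2 and Egr4 (each 0.98). Tdrd5 was the gene nearest to Tdrd1 of all 7059. The nearest to Tdrd6 were Fam186b (0.99), Speer2 and Tmbim7 (both 0.98), to Piwil2 Cstf2t (0.98), Cwf19l2 and Kdm5b (both 0.97), and to Mov10l1 Mrpl3, Snx4 and Usp19 (0.98, 0.98 and 0.97). To Tdrd1, after Tdrd5, the nearest were Adad2 (0.92) and Sgpp1 (0.91), and to Tdrd5 Capn10 (0.94), Pcgf6 and Syt11 (both 0.93). Ddx4 was nearest to Ndufs4, Cox6c and Hspa9 (each 0.93), Asz1 to Xrcc5 (0.96), Supt6 and Iars2 (both 0.95), and Mael was near to Ubb and Dpcd (both 0.95).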

How the data were processed

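Droplet single-cell RNA sequencing of dissociated whole testis gave 1 library per time. Per the file headers, the deposited matrices are Cell Ranger 3.0.2 output with unnormalized UMI counts, and the submitters' processing notes name build mm10 and Seurat 4.3.0.1 without their role. Libraries held 7441 to 11987 barcodes and 75578147 to 118147393 UMIs. Barcodes short of 1000 UMIs or 500 genes, or at 20% mitochondrial UMIs or above, were dropped (leaving 4848 to 11475), and 150 to 393 with a Scrublet score (scanpy 1.11.5) of 0.25 or more, chosen because the automatic threshold marked almost none in 4 libraries, were removed as doublets. Only 246 barcode sequences occurred in more than 1 library. Cells were clustered (3000 variable genes without mitochondrial and pathway genes, 40 principal components, 15 neighbours, Leiden at resolution 2, 63 clusters), and a cluster took a class name if its marker score reached 0.75, exceeded the runner-up by 0.25, and 3 or more of its markers reached 20 CPM. These thresholds, and leaving unnamed 1 germ-like cluster led by Sertoli genes, were set after the data were seen. A name was also withheld if another class had more markers among the cluster's 10 top genes. The same held for a shallow cluster with no marker of its best class among those genes. Shallow meant a median depth under the median of its libraries divided by 3. UMIs were summed per class and library. CPM have exact Poisson intervals, ratios exact conditional binomial intervals and shares exact binomial intervals, covering counting error only. The ratio step was tested on simulated data. Members, lists and markers were chosen with earlier results of these data known. All members were named. Of the other pathway genes, those called in every library were ranked by the interval bound nearest 1 and up to 3 named per direction and step, and for each member the 3 genes most alike in pattern were named, apart from 1 that is not reported here. Positions and promoters came from GENCODE M21 and RefSeq. The planned comparison of protein sequences was not made. Alternatives covered cell depth, mitochondrial share, weighting, scaling, free RNA, cluster resolution and doublets.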

Additional observations from a re-analysis of the deposited data

How the results depend on the processing

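No paired analysis was possible because each time has 1 library, and no library could be left out of a group for the same reason. Coarser clustering left 0 leptotene or zygotene-like cells at 144 h and 1 at 350.4 h, so the counts from preleptotene-like to leptotene or zygotene-like cells could not be recomputed under it, and those into early pachytene rest on 2 libraries in place of 3. With cells under 10% mitochondrial UMIs the former rest on 1 library in place of 2. Of the counts of members called in every library that could be recomputed, those that moved were as follows. With 10% of each library's suspension profile subtracted as free RNA, 1 member became lower from differentiating spermatogonia-like to preleptotene-like cells and 1 became higher from early to late pachytene, in place of 0. With every cell weighing the same, 1 in place of 6 was lower into round spermatids, 2 in place of 4 into elongating spermatids, and 1 in place of 2 higher from differentiating spermatogonia-like to leptotene or zygotene-like cells. With coarser clustering these were 2 into round spermatids and 0 for the last step, and without doublet removal 0 for the last step. Coarser clustering also turned the late pachytene ratios of 556.8 over 350.4 h, on the log2 scale, to 0.81 for Piwil1, 0.14 for Piwil2, 0.23 for Tdrd1 and 0.19 for Mov10l1, and free RNA subtraction turned Tdrd5 in preleptotene-like cells, 350.4 over 144 h, to -0.11. Each of these had been called in the other direction in the values reported. Of the called ratios that could be recomputed, 130 of 133 kept their call in cells of at least 5000 UMIs, 106 of 133 with equal weights, 89 of 105 with coarser clustering and 107 of 115 with free RNA subtracted. Scaling without the 8 genes over 1% of a class shifted log2 ratios of all genes by 0.02 to 0.40 in the median and kept 130 of 133 calls. Depth limits the values of classes with under 100 cells and of Piwil4 outside undifferentiated spermatogonia-like cells.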
